A study of Mus musculus with 6 samples.

Results

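Tumours of STAM mice were compared with normal mouse liver over 388 microRNA (miRNA) probes, out of 1096 mouse probes on the array. A probe was included where its spot lay above the mean plus 2 SD of the empty (blank) spots on at least 2 of the 4 arrays compared, which are 3 hepatocellular carcinoma (HCC) arrays, HCC 1, HCC 2-1 and HCC 2-2, and 1 array of normal liver. STAM mice are a model of HCC arising from non-alcoholic steatohepatitis, made by injecting STZ (streptozotocin, a toxin of insulin-producing cells) and feeding a high-fat diet; per the labels they develop HCC at 18 weeks of age. The tumours came from STAM mice and the normal liver from a control mouse, and all samples share a C57BL6 background. The labels do not give the age at sampling, the sex, the diet of the control mouse, or whether HCC 2-1 and HCC 2-2 came from 1 animal. STZ, diet, tumour tissue and age therefore cannot be told apart in this comparison. With 3 arrays against 1, an exact test cannot go below 0.25 (one-sided). The test used was limma's moderated two-sided test, in which 2 arrays of non-tumour STAM liver (NT) add to the estimate of the spread and the normal liver is assumed to vary like the other groups. Nothing says that the STAM samples are separate animals, so the p-values reflect a spread that may in part be technical.

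MiRNAs are short RNAs that guide Argonaute proteins to messenger RNAs, which are then repressed or degraded. Bases 2 to 8 from the 5′ end, the seed, do most of the pairing with a target, so miRNAs with the same seed form a family. In adult liver, miR-122 is the dominant miRNA of hepatocytes, the miR-192 and miR-194 pair is enriched in liver, intestine and kidney, and the miR-30 family is abundant in many differentiated epithelia. MiR-21 and miR-34a are known from liver injury, miR-210 from hypoxia, miR-223 from neutrophils and other myeloid cells, and miR-451 from red blood cells.

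The mature sequences below are those on which the results turn, from RefSeq (GRCm38.p6), with the seed in capitals. They were picked after the values were known. The first set holds the only miRNA that passed the test. It also holds examples of the liver, miR-30 and epithelial miRNAs whose normal array read above every HCC array after the normalization described below. In raw signal HCC 2-2 exceeded the normal liver for several of these, such as miR-30a and miR-192. Others of that kind, such as miR-30b, miR-30d and miR-203, are named without a sequence.
miR-451: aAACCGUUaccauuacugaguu
miR-30a: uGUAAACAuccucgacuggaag
miR-30c: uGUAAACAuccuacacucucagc
miR-30e: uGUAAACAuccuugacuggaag
miR-192: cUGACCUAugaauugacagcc
miR-194: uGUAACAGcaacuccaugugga
miR-148a: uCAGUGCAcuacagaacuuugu
miR-31: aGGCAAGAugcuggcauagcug
The 3 miR-30 sequences share the seed GUAAACA. MiR-451 lies at chr11:78073186-78073207 on the plus strand, and miR-192 lies at chr19:6264857-6264877 on the plus strand, beside one of the 2 copies of miR-194 at chr19:6264658-6264679.

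The second set holds miRNAs that read higher on every HCC array than in normal liver, again as examples, with miR-92b shown as the opposite strand of miR-92b*.
miR-92b*: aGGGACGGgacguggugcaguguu
miR-92b: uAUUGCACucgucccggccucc
miR-711: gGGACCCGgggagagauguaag
miR-2137: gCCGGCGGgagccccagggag
miR-2861: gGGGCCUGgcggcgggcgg
miR-326*: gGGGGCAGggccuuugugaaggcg
miR-210: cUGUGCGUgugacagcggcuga
miR-23a: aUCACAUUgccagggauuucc
miR-223: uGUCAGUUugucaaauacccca
None of the miRNAs of the second set shares a seed with another.

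The normal liver array was dimmer than the HCC arrays. Over the 388 probes the median signal above the blank spots was 7.26 in normal liver and 14.8, 13.8 and 16.7 in HCC 1, 2-1 and 2-2, in units of raw scanner intensity. The normal array had 316 of its 1096 mouse probes above background, the HCC arrays 349 to 446. Each of the 3 chips carried 2 arrays. HCC 2-1 and HCC 2-2 shared a chip, NT 2 lay beside HCC 1, and NT 1 lay beside the normal liver. No chip holds both a tumour and the normal liver. Scanner gain was 38 for normal liver and 39 to 41 for the tumours, so gain and tumour cannot be told apart. A normalized value below is a log2 intensity after background correction and quantile normalization over the 6 arrays, which sets every array to the same distribution. A difference is the HCC mean minus normal liver on that scale, so it tells where a miRNA stands relative to the other miRNAs of its array.

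MiR-451 was the only miRNA of the 388 (0.258%) that passed limma's test at an adjusted p of 0.05, and it rose in HCC. Before adjustment, 31 members (7.99%) had p below 0.05 with a higher value in HCC and 41 (10.6%) with a lower value. Across all members 196 read higher in HCC and 192 lower, and the median difference was 0.0045, with quartiles of -0.10 and 0.11. Only 7 members were more than 1 log2 unit higher and 1, miR-30a, more than 1 lower. The normal array lay below all 3 HCC arrays for 135 members (34.8%) and above all 3 for another 135 (34.8%), so a single normal array outside the HCC range is common and says little about any one miRNA. Across members, HCC arrays correlated with each other at 0.981 to 0.990 and with normal liver at 0.961 to 0.965. These are correlations across probes, which are not independent replicates.

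**Figure D1:**
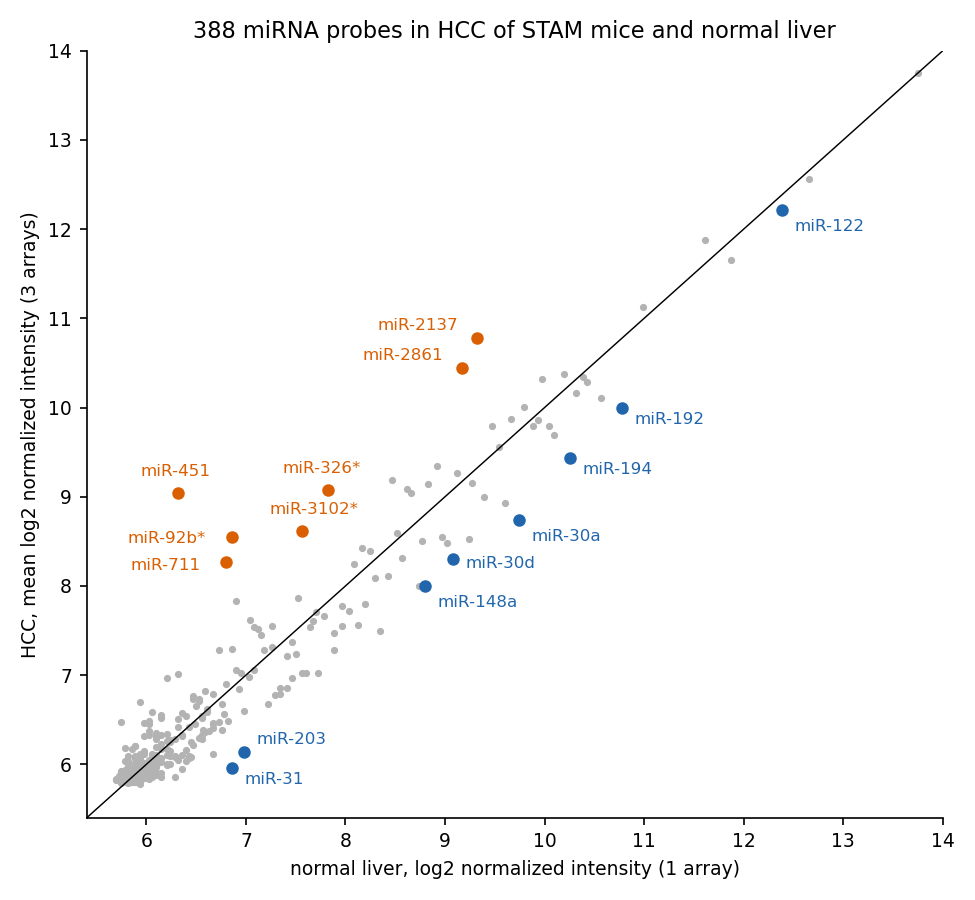
Normalized log2 intensity of the 388 members in normal liver (x axis, 1 array) and in HCC (y axis, mean of 3 arrays), 1 point per probe; the line marks equal values, orange points are named members higher in HCC and blue points named members lower in HCC. MiR-451 stands farthest from the line, at 6.32 in normal liver and 9.05 in HCC, and miR-122 lies close to it.

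The plot of HCC against normal liver shows most members along the line of equal values, with a group led by miR-451 above it and a group of abundant hepatocyte and miR-30 family members just below it.

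MiR-451, a miRNA that is cut from its precursor by Argonaute 2 rather than Dicer and that is abundant in red blood cells, had a normalized value of 6.32 in normal liver and of 9.17, 8.80 and 9.17 in HCC 1, 2-1 and 2-2. All 3 tumours stood well above the normal liver. The HCC mean was 9.05 ± 0.22 (SD, n = 3), a difference of 2.73 (SE 0.18; adjusted p 0.0189 by limma). In raw signal above the blank spots it read 12.8 in normal liver and 591, 445 and 786 in the tumours. The non-tumour STAM livers stood at the tumours' level, at 9.17 and 9.08. NT 1 shared its chip with the normal liver, so the gap of 2.85 between those 2 arrays lay within 1 chip. The call was lost when only the 4 arrays of the comparison were fitted (adjusted p 0.0950 by limma). It was also lost with chip as a fixed block, where the difference was 2.94. That fit adds NT 1 minus normal liver to HCC 1 minus NT 2, so HCC 2-1 and HCC 2-2 carry no weight in its differences. It also leaves fewer degrees of freedom than the reported fit. Without HCC 1, HCC 2-2, NT 1 or NT 2 adjusted p by limma was 0.0992, 0.187, 0.0879 and 0.0957.

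The other red blood cell miRNAs were dim. MiR-144, which lies beside miR-451 in the genome, differed by 0.05 and its opposite strand miR-144* by 0.13. MiR-144 had a signal above the blanks of 2.76 in normal liver and of 6.32, 5.80 and 11.7 in the tumours, which is near background on all 4 arrays. MiR-486, another red blood cell miRNA, differed by 0.10 and miR-486* by 0.31, or 0.09 with chip as a fixed block. MiR-144, miR-144* and miR-486 were not above background in normal liver, so their differences there rest on a background reading. The summed signal of the 4 erythroid members was 24.0 in normal liver and 635.3, 480 and 858 in the tumours, nearly all of it from miR-451. Whether the amount of blood in the samples plays a part in the miR-451 result was not tested. In bulk tissue, a different number of cells of a type and a different amount of RNA per cell cannot be told apart.

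The members next in size on the higher side were miR-92b*, miR-711, miR-2137, miR-2861, miR-326* and miR-3102*, none of which passed the test. MiR-92b* had normalized values of 6.86 in normal liver and 8.66, 8.17 and 8.83 in the tumours. MiR-711, encoded within a collagen gene locus, read 6.80 in normal liver against 7.94, 8.29 and 8.57. On both, every tumour stood at least 1 log2 unit above the normal liver, with differences of 1.69 (SE 0.37) and 1.47 (SE 0.27) and adjusted p by limma of 0.178 for each. MiR-2137 read 9.32 in normal liver and 10.57, 10.99 and 10.78 in the tumours, a difference of 1.45 (SE 0.41). MiR-2861, known from osteoblast differentiation, read 9.17 against 10.19, 10.57 and 10.57, a difference of 1.27 (SE 0.40). MiR-326* read 7.83 against 9.02, 8.97 and 9.24, and miR-3102* read 7.57 against 8.29, 8.77 and 8.78. The groups did not overlap for any of the 6, but these were picked by size, and 34.8% of all members had the normal array below every tumour. The 3 HCC arrays were each on another chip than the normal liver.

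For several of these the chips moved with the result. NT 1, on the chip of the normal liver, read 9.60 for miR-2137, while NT 2, on the chip of HCC 1, read 10.57, equal to HCC 1. For miR-326* NT 1 read 8.03 and NT 2 read 8.97. For miR-2137 and miR-326* NT 1 was thus near the normal liver and NT 2 near the tumours, although both are non-tumour STAM liver. MiR-3102* did not show this pattern. Its NT 1 reading was 0.73 above the normal liver on the same chip, and its NT 2 reading was 0.62 above HCC 1. With chip as a fixed block, the differences became 0.28 for miR-2137, 0.09 for miR-2861, 0.26 for miR-326* and 0.11 for miR-3102*. Those of miR-92b* and miR-711 became 1.13 and 0.87. Of the 7 members over 1 log2 unit higher, 2 (miR-451 and miR-92b*) stayed over 1 in that fit. The part of the chip in these differences was not tested beyond this fit. It rests on single arrays, with HCC 1 the only tumour that carries weight, and takes NT 1 and NT 2 as alike apart from their chips. MiR-3960, encoded beside miR-2861, differed by 0.18.

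**Figure D2:**
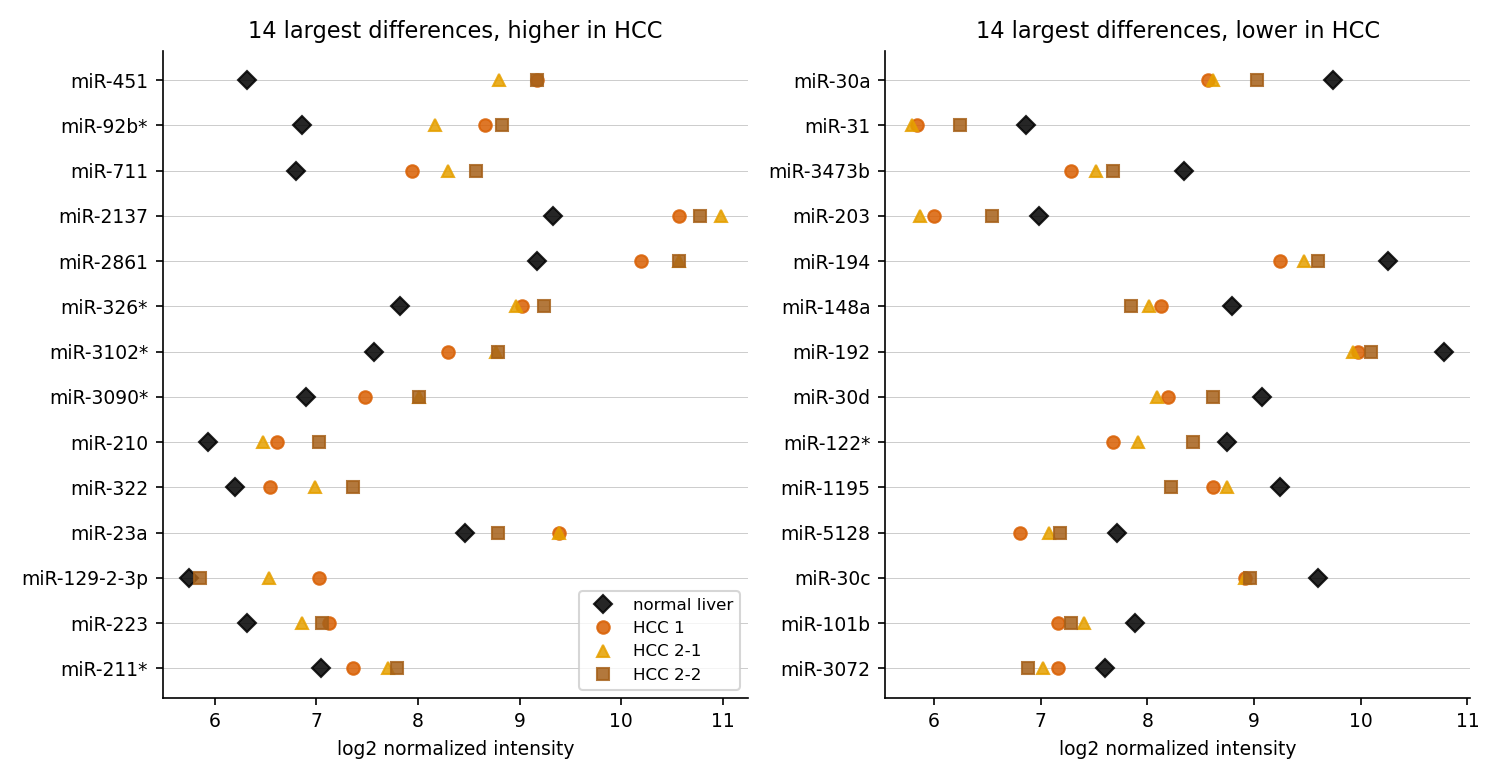
Normalized log2 intensity on each array for the 14 members with the largest positive (left) and the 14 with the largest negative difference (right); black diamonds are normal liver and coloured symbols the 3 HCC arrays. The normal liver lies outside the tumours' range in every line, with the narrowest gap for miR-129-2-3p, which was not above background in normal liver.

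The plot of single arrays shows that the tumours were close together for miR-451, miR-326* and miR-192 and spread apart for miR-129-2-3p, miR-322 and miR-122*. Members were chosen for that plot by the size of their difference, so the lack of overlap in it is no finding.

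Of the 12 probes for hepatocyte miRNAs on the array 11 were members, all of them above background in normal liver. In normalized values 10 of the 11 read lower in HCC and 1 higher, with a median of -0.28, against a median of 0.0045 over all members. The 11 are not all independent, since miR-192 lies beside a copy of miR-194 in the genome. The normal array lay above all 3 tumours for 8 of them, where 34.8% of all members did so, and none passed the test. MiR-192 read 10.78 in normal liver and 9.97, 9.93 and 10.10 in the tumours, a difference of -0.78 (SE 0.16; adjusted p 0.178 by limma). Its partner miR-194 read 10.25 against 9.24, 9.47 and 9.60, a difference of -0.82 (SE 0.18). MiR-148a, which targets DNA methyltransferase messages in human cells, read 8.80 against 8.13, 8.01 and 7.85, a difference of -0.80 (SE 0.17). For these 3 the tumours lay together, below the normal liver and without overlap. The non-tumour STAM livers were below the normal liver as well. They read 10.25 and 9.88 for miR-192, 9.88 and 9.60 for miR-194, and 8.34 and 8.03 for miR-148a. Over the hepatocyte list the median of NT minus normal liver was -0.29.

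MiR-122 itself showed overlapping groups. It read 12.38 in normal liver and 11.61, 12.38 and 12.65 in the tumours, a difference of -0.17 (SE 0.44; adjusted p 0.839 by limma). HCC 1 was the low tumour, HCC 2-1 equalled the normal liver and HCC 2-2 exceeded it. The opposite strand, miR-122*, read 8.74 in normal liver and 7.68, 7.91 and 8.42 in the tumours, with HCC 1 again lowest. MiR-802, a liver-enriched miRNA known from glucose metabolism in obese mice, had a signal above the blanks of 11.8 in normal liver and of 0.322, -0.196 and 16.7 in the tumours, so it was near background in HCC 1 and HCC 2-1 but not in HCC 2-2. MiR-22 differed by 0.01 and miR-378, an intronic miRNA of the Ppargc1b gene, by -0.07. All 4 arrays carried the defining miRNA of hepatocytes: miR-122 had a signal of 5366 above the blanks in normal liver and of 2707, 4624 and 7344 in the tumours.

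The size of the lower values of abundant hepatocyte miRNAs, and in some settings their sign, depends on how the dimmer normal array is scaled. Before normalization, miR-192 had a signal above the blanks of 1041 in normal liver and 967, 1124 and 1347 in the tumours, which overlap. MiR-194 had 736 against 657, 819 and 1026, which overlap as well. With each array scaled to its median instead of by quantiles, the differences were 0.09 for miR-192 and 0.12 for miR-194, and the median of the hepatocyte list was 0.01 with 6 members higher and 5 lower. That scaling moved the median of all members to 0.12. Relative to that shift miR-192 was at -0.04, miR-194 at -0.01 and the list at -0.11, so single members stood close to the other miRNAs under that scaling. MiR-148a kept a negative value of -0.21 with it. On every array the median mouse probe lay below the background threshold, in normal liver at 1.76 against 2.98 above the blanks. The list's median was -0.06 with upper-quartile scaling (6 of 11 lower). It was -0.28 with cyclic loess and -0.81 with blank subtraction (10 of 11 lower in both). In the authors' deposited values it was -0.44 (9 of 10 lower), where all members had shifted to 0.35. With chip as a fixed block, where HCC 1 alone of the tumours carries weight, the differences were -0.44 for miR-192 and -0.73 for miR-194. Those of miR-148a and miR-122 were -0.36 and -0.51. Which scaling is nearer to the RNA content of these tissues was not tested.

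All 5 members of the miR-30 family read lower in HCC, with the normal array above all 3 tumours for each and a median of -0.67. Over all 388 members 192 read lower, and 34.8% had the normal array above every tumour. MiR-30a, which targets messages of autophagy and epithelial plasticity in several cell systems, read 9.74 in normal liver and 8.57, 8.61 and 9.02 in the tumours, a difference of -1.01 (SE 0.24; adjusted p 0.178 by limma). MiR-30c read 9.60 against 8.92, 8.92 and 8.97, a difference of -0.67 (SE 0.10; adjusted p 0.139 by limma). HCC 2-2 was the highest tumour for both. The non-tumour STAM livers read 9.08 and 8.74 for miR-30a and 9.24 and 9.02 for miR-30c, also below the normal liver. Over the family the median of NT minus normal liver was -0.34. MiR-30d differed by -0.78, miR-30e by -0.40 and miR-30b by -0.31, so none of the family passed the test. The 5 probes measure closely related sequences, 3 of them printed above, and the array may not fully separate them. With median scaling the family's median was 0.07, with 3 members higher and 2 lower, which is -0.06 relative to the shift of all members. MiR-30e and miR-30b were then at 0.46 and 0.37, above that shift, and miR-30a at -0.28. With upper-quartile scaling the family's median was -0.004, with 2 members higher and 3 lower. It was -0.59 with cyclic loess and -0.45 in the authors' deposited values, where all members had shifted to 0.35. Before normalization, miR-30a had a signal above the blanks of 529 in normal liver and 345, 380 and 622 in the tumours, which overlap. MiR-30c had 489 against 463, 510 and 614, which overlap as well. The opposite strands miR-30a* and miR-30e* had differences of -0.27 and -0.38.

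Epithelial miRNAs divided. MiR-31 had a signal above the blanks of 38.8 in normal liver and of 5.32, 1.80 and 34.7 in the tumours, and miR-203, known from keratinocyte differentiation, had 42.8 against 13.3, 4.80 and 54.7. HCC 1 and HCC 2-1 were low for both, whereas HCC 2-2 was near or above the normal liver in raw signal. Their normalized differences were -0.90 (SE 0.26) and -0.84 (SE 0.29), with adjusted p by limma of 0.205 and 0.253. MiR-31 was above background on all arrays but HCC 2-1. With chip as a fixed block miR-31 was at -0.58. MiR-200a, miR-200b and miR-200c, which maintain the epithelial state by repressing ZEB factors, differed by 0.01, -0.05 and 0.07. Of the 10 bile duct and epithelial probes 5 were members, 4 of them above background in normal liver, with a median of -0.05.

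Of the 8 white blood cell members 6 were above background in normal liver. Over the 8 the median was 0.05, with 6 higher and 2 lower. MiR-223 read 6.32 in normal liver and 7.12, 6.86 and 7.05 in the tumours, a difference of 0.69 (SE 0.22; adjusted p 0.209 by limma). MiR-342-3p, of lymphoid cells and macrophages, read 5.78 against 6.26, 6.17 and 6.13, a difference of 0.40 (SE 0.08). The normal reading of miR-342-3p was the lowest above background on that array, with a signal of 3.76 against a threshold of 2.98. For miR-223 and miR-342-3p the tumours stood together above the normal liver, and with chip as a fixed block miR-223 was at 0.32. The non-tumour STAM livers were above the normal liver as well, at 7.12 and 7.60 for miR-223 and 6.21 and 6.34 for miR-342-3p. MiR-146a, a brake on NF-kB signalling, was lower at -0.27 (SE 0.06), while the lymphoid miR-150 and the general leukocyte miRNAs miR-142-5p and miR-142-3p differed by 0.01, -0.00 and 0.12. MiR-142-3p was not above background in normal liver, and miR-155, known from activated lymphocytes and macrophages, was not above it in normal liver or HCC 1. MiR-142-3p and miR-155 are therefore members only through HCC arrays, so the choice of members largely sets their sign. The summed signal of the 8 was 76.1 in normal liver and 242, 181 and 261 in the tumours. This sum is not normalized, and the normal array was dimmer over all members, with a median of 7.26 against 14.8, 13.8 and 16.7.

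Stellate and smooth muscle miRNAs had a median of -0.02 over 7 members. MiR-145, a smooth muscle miRNA, read 7.41 in normal liver and 6.95, 6.84 and 6.78 in the tumours, a difference of -0.55 (SE 0.09; adjusted p 0.139 by limma). Its cluster partner miR-143 differed by -0.05. The non-tumour STAM livers read 7.61 and 7.71 for miR-145, above the normal liver. With median scaling the miR-145 difference was 0.06, or -0.06 relative to the shift of all members. The fibroblast and stellate cell miRNAs miR-199a-3p (on 1 probe with miR-199b), miR-199a-5p and miR-214 differed by 0.21, -0.02 and 0.03. The endothelial pair miR-126-3p and miR-126-5p differed by 0.21 and -0.20 with overlapping arrays for miR-126-3p. No probe of the muscle list (3 on the array) or the pancreas list (4) was a member, and of 5 neural probes only miR-128 was, at 0.08 and not above background in normal liver.

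The list of liver injury, fibrosis and hypoxia miRNAs had 8 members, of which 4 (miR-21, miR-34a, miR-210 and miR-221) were above background in normal liver. The other 4 are members only through HCC arrays, so the choice of members largely sets their sign, and the positive values of all 8 (median 0.24) support nothing. MiR-210, a target of hypoxia-inducible factor, read 5.93 in normal liver and 6.61, 6.47 and 7.03 in the tumours, a difference of 0.77 (SE 0.23; adjusted p 0.208 by limma). Its signal above the blanks was 3.76 in normal liver and 51.3, 38.8 and 116 in the tumours, with HCC 2-2 the highest. For miR-210 the non-tumour STAM livers read 6.45 and 6.57, also above the normal liver. MiR-21, the most widely reported oncogenic miRNA, had a signal of 593 in normal liver and of 1558, 1241 and 2138 in the tumours. After normalization miR-21 read 9.97 against 10.43, 10.10 and 10.43, a difference of 0.35 (SE 0.17; adjusted p 0.334 by limma). It was 1.33 with median scaling and 0.66 with chip as a fixed block. The non-tumour STAM livers read 10.99 and 10.78 for miR-21, above every tumour. MiR-34a, a target of p53, read 6.86 in normal liver and 7.83, 6.82 and 7.22 in the tumours, with HCC 2-1 just under the normal liver, so that the groups overlapped. Its difference of 0.43 (SE 0.43) was 1.42 with chip as a fixed block.

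MiR-221 and miR-222, a pair from 1 transcript that represses the cell cycle inhibitor p27, differed by 0.16 and 0.25. MiR-222 was not above background in normal liver, where its signal was 1.76, and had 15.3, 16.8 and 17.7 in the tumours. On the reported scale it was therefore at least 1.19-fold higher in HCC (adjusted p by limma 0.178). Its difference was 0.20 with cyclic loess and 0.16 with chip as a fixed block. This bound sets the HCC mean against the lowest value of a probe above background on the normal array. MiR-181a, also not above background in normal liver, was at least 1.17-fold higher on that scale. Both are members only through HCC arrays, so the choice of members largely sets their sign, and these bounds support nothing.

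The list of lipid and insulin related miRNAs had 10 members, 9 of them above background in normal liver. All 10 read higher in HCC, where 196 of all 388 members did, with a median of 0.29, and none passed the test. Over this list the median of NT minus normal liver was 0.17. MiR-23a read 8.46 in normal liver and 9.39, 9.39 and 8.78 in the tumours, a difference of 0.72 (SE 0.28; adjusted p 0.253 by limma). For miR-23a the non-tumour STAM livers read 9.12 and 9.27, also above the normal liver. MiR-27a and miR-24, from the same cluster, differed by 0.30 and 0.26. HCC 2-2 was the lowest tumour for all 3, at 7.12 for miR-27a and 8.09 for miR-24, just under the normal liver's 7.15 and 8.17. MiR-23b and miR-27b, from the paralogous cluster, differed by 0.47 and 0.35, and their probes may not fully separate them from miR-23a and miR-27a. MiR-103 and miR-107, which lower insulin sensitivity in mice, differed by 0.14 and 0.16. MiR-33, which lies in an intron of Srebf2 and represses cholesterol export, was not above background in normal liver. On the reported scale it was at least 1.21-fold higher in HCC (adjusted p by limma 0.253). It is a member only through HCC arrays, so the choice of members largely sets its sign.

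**Figure D3:**
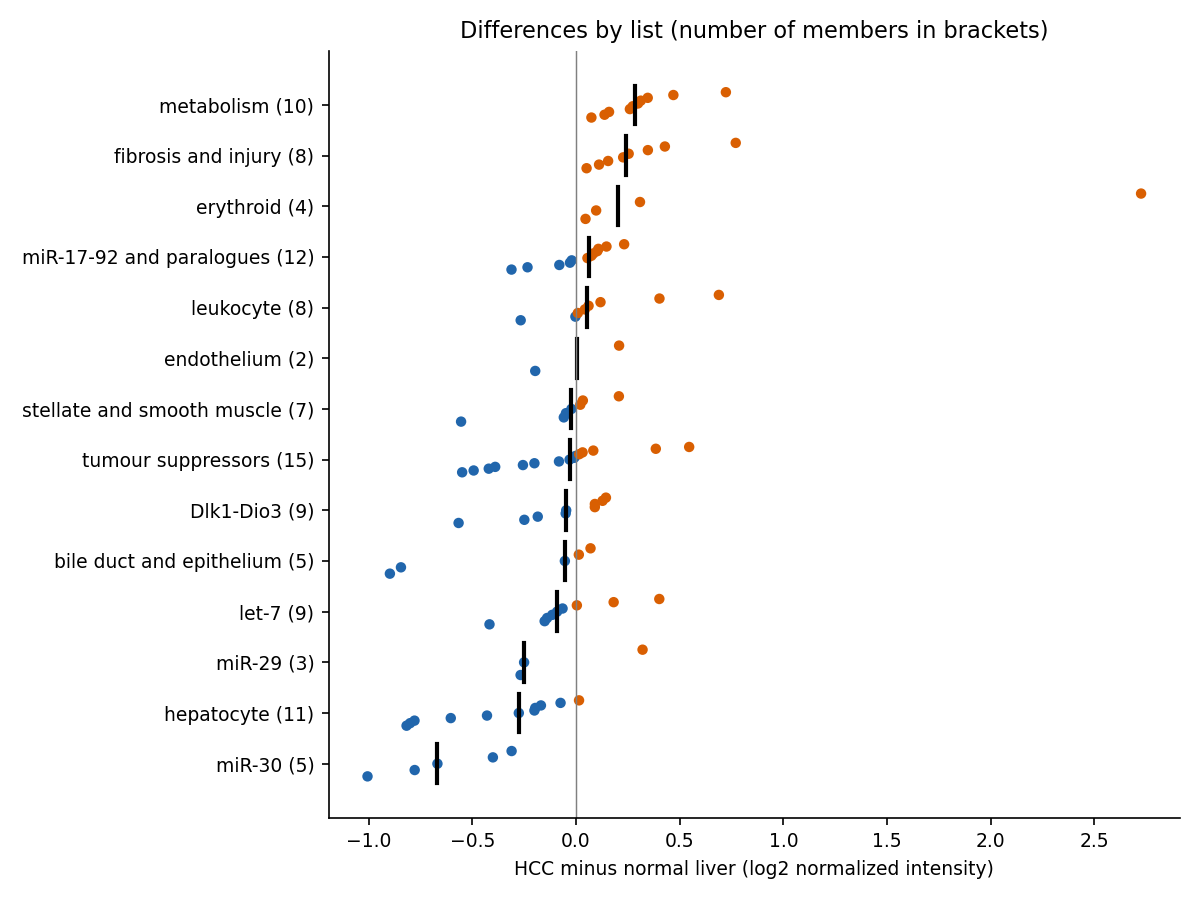
Differences (HCC minus normal liver, log2) of the members of each list with at least 2 members, 1 point per miRNA, orange above 0 and blue below; the black bar is the list's median and the number of members stands in brackets. The list of lipid and insulin related miRNAs lies above 0 and the miR-30 family below it, and single members such as miR-451 stand far from their list. In the injury list 4 of 8 members, and in the erythroid list 2 of 4, were not above background in normal liver and are members only through their HCC arrays.

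The plot of lists places the hepatocyte and miR-30 members at the negative end and the lipid and insulin members at the positive end. Differences of most other lists lay on both sides of 0.

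The let-7 family, which restrains growth through Ras and Hmga2, had 9 members, 6 lower and 3 higher, with a median of -0.09. Let-7i read 7.12 in normal liver and 7.48, 7.55 and 7.53 in the tumours, a difference of 0.40 (SE 0.12; adjusted p 0.205 by limma). With chip as a fixed block let-7i was at 0.09. Let-7g lay on the other side at -0.42 (SE 0.23), with HCC 1 the lowest. With median scaling all 9 read higher, with a median of 0.68, or 0.55 relative to the shift of all members. The miR-17-92 cluster and its paralogues, which promote proliferation, had 12 members, 7 higher and 5 lower, between -0.31 for miR-19b and 0.23 for miR-106b. With median scaling all 12 read higher (median 0.53), in the authors' deposited values 11 did, and with chip as a fixed block 4 did, so the list has no settled direction. Of the miRNAs known as growth restraining, 10 of 15 read lower, with a median of -0.03, but all 15 read higher with median scaling (median 0.32) and 9 in the authors' deposited values (median 0.25). MiR-99a, at -0.55 (SE 0.19), and miR-15b, at 0.55 (SE 0.36), were at the ends of that list. MiR-29a, miR-29b and miR-29c, which repress collagen messages, differed by -0.25, 0.32 and -0.27. Of 45 probes of the imprinted Dlk1-Dio3 cluster on the array, 9 were members, 6 of them above background in normal liver, between -0.57 for miR-494 and 0.14 for miR-667.

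Some members with small p before adjustment had small differences and tight tumours. MiR-690 read 11.61 in normal liver and 11.88 in all 3 tumours, a difference of 0.27 (SE 0.04; adjusted p 0.139 by limma). A miRNA of constant rank shows no spread after quantile normalization. MiR-690 read -0.59 with cyclic loess and -0.20 in the authors' deposited values, so its direction is not settled. MiR-296-5p differed by 0.43 (SE 0.07) and miR-193b by -0.41 (SE 0.06), also at an adjusted p of 0.139 by limma. MiR-193b had a signal of 15.8 in normal liver and of 12.3, 7.80 and 7.74 in the tumours. MiR-365, from the same cluster as miR-193b, was at -0.20 (SE 0.04). MiR-193, a relative with the same seed family, was at -0.55 (SE 0.12).

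Other members that the naming rule brought up were miR-350, at 0.37 (SE 0.09), miR-1247*, at 0.46 (SE 0.13), and miR-128-2*, at 0.18 (SE 0.05). MiR-128-1* was not above background in normal liver and was at least 1.12-fold higher in HCC on the reported scale (adjusted p 0.178 by limma). It is a member only through HCC arrays, so the choice of members largely sets its sign. On the negative side were miR-3084 at -0.55 (SE 0.13), miR-5112 at -0.52 (SE 0.10), miR-1902 at -0.48 (SE 0.11) and miR-3067 at -0.29 (SE 0.06). Each of these 8 had the normal array outside the range of the tumours, and none passed the test. They were picked by small p, and over all members the normal array lay below every tumour for 34.8% and above every tumour for 34.8%. Their lack of overlap is therefore no finding. Their functions in liver are little known.

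Many members were near background. Of the 388, 255 were above background on all 4 arrays, 94 were not above background in normal liver, and 282 had a mean signal under 50 above the blanks, so that the offset of 50 added in background correction compresses their differences. A total of 37 members were above background on all 3 tumours and not in normal liver. They are members only through HCC arrays, so the choice of members largely sets their sign. The highest bound among these was for miR-129-2-3p, with a signal of -0.238 in normal liver and of 88.3, 42.8 and 4.74 in the tumours. It was at least 1.61-fold higher (adjusted p by limma 0.433), and the tumours differed among themselves more than HCC 2-2 differed from the normal liver. In the other direction, 39 members were above background in normal liver and on only 1 or 2 tumours. A further 22 probes were above background on the normal array alone and so could not be members, since the rule asks for 2 arrays. The members nearest to the threshold, such as miR-138, exceeded it by 0.191 raw units on their second-highest array, and the nearest probes outside, such as miR-872*, missed it by values of -0.161.

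Both strands of a precursor were members in 59 cases. Of these pairs 31 had differences of 1 sign, 16 negative and 15 positive, while the members as a whole divided into 196 higher and 192 lower, so a share this close to an even split supports nothing. Both strands of miR-192 were lower in HCC, at -0.78 and -0.36, and both strands of miR-322, an X-linked miRNA that inhibits the cell cycle, were higher, at 0.76 and 0.12. MiR-92b was at -0.08 while its opposite strand miR-92b* was at 1.69, and miR-3090 was at -0.01 while miR-3090* was at 0.94. Of the 77 members with a star name, the older mark of the less abundant strand, 44 read higher in HCC with a median of 0.04, and of the other 311 members 152 read higher.

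**Figure D4:**
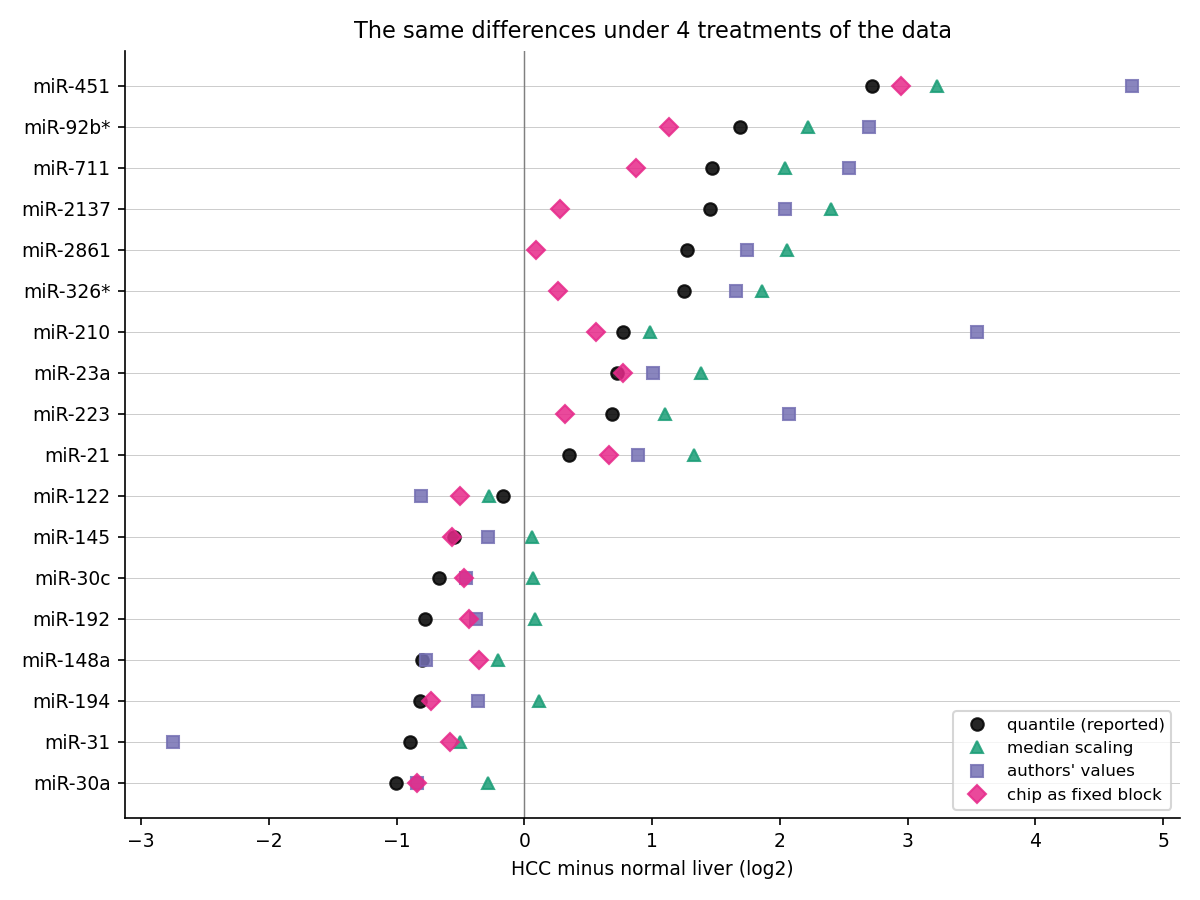
Differences (HCC minus normal liver, log2) of 18 miRNAs, chosen after their values were seen, under the reported quantile normalization, with median scaling, in the authors' deposited values and with chip as a fixed block. MiR-451 lies between 2.73 and 4.76 in all 4, miR-2137, miR-2861 and miR-326* come close to 0 with the chip block, and miR-192, miR-194, miR-30c and miR-145 cross 0 with median scaling, where the median of all members was 0.12.

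The plot of settings shows which differences kept their sign. MiR-451, miR-92b*, miR-711, miR-210 and miR-23a kept positive values in all 4, and miR-30a, miR-31 and miR-148a kept negative ones. In the authors' deposited values, to which no offset was added, the difference of miR-451 was 4.76, that of miR-210 was 3.55 and that of miR-31 was -2.75, while the median of the 330 members that have those values on all arrays was 0.35. The sizes for miR-210 and miR-31 rest on readings near background. MiR-210 had a signal of 3.76 above the blanks in normal liver, where the threshold was 2.98. MiR-31 had 1.80 in HCC 2-1 and was not above background there.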

How the data were processed

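Total RNA was labelled with Hy5 and hybridised to 1-colour Toray mouse miRNA chips, per the labels and the file headers. The deposited scanner files hold raw spot intensity, with no normalization recorded per the file headers. The authors also deposited processed intensity values, linear in the spot intensity and scaled to a median of 25 per array; their log2 served as an alternative. In R 4.3.3 with limma 3.58.1, intensities were corrected by normexp (offset 50), put on a log2 scale and quantile normalized over 1095 mouse probes (miR-434-5p, flagged on HCC 1, was left out). A model of 3 groups (3 residual and 1.45 prior degrees of freedom) was fitted, with Benjamini-Hochberg adjustment over the 388 members. Only the model fit was tested on simulated data, with known shifts added to simulated normalized values. Background correction, normalization, the choice of members and differences between chips were not simulated. The number of arrays limits the precision. The members, lists and naming rule were chosen with earlier results of these data known. Named miRNAs are the 12 of smallest p per direction, fixed liver, blood and tumour miRNAs, and the 2 largest differences of each list; others were named after their values were seen. Probe names follow an older miRBase release, and sequences were matched by current names. HepG2 samples were not analysed here.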

Additional observations from a re-analysis of the deposited data

How the results depend on the processing

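The comparison was recomputed under 20 alternatives. Of the counts, the number of miRNAs called higher in HCC, 1 as reported, was 2 with median or upper-quartile scaling, 3 with blank subtraction, 3 with a trended robust prior and 13 over the 330 members with authors' values on all arrays. It was 0 with the 4 arrays alone and with chip as a fixed block, and 0 to 1 when single arrays were left out. The number called lower, 0 as reported, was 1 with blank subtraction, 2 with a trended robust prior and 0 when single arrays were left out. MiR-451 was positive in all alternatives, at 2.60 to 4.76. Directions turned under at least 1 alternative for 226 of the 388 members, and for 26 of the 59 miRNAs that the naming rule picks, none of which passed the test as reported; the cause was not tested beyond the shift of all members. That shift was 0.12 with median scaling, 0.05 with upper-quartile scaling and 0.35 in the authors' values. Relative to it, 11 of the 20 naming-rule miRNAs that turned with median scaling, 6 of 15 with upper-quartile scaling and 6 of 8 in the authors' values kept their direction. With both scalings let-7c, let-7g, miR-126-5p, miR-142-5p, miR-19b, miR-29a, miR-29c, miR-494 and miR-99a turned relative to it as well, and in the authors' values miR-142-5p and miR-690 did. Values as they stand follow. With median scaling, values turned positive for miR-30c (0.0672), miR-145 (0.0619), miR-5112 (0.0252), miR-3084 (0.0233) and miR-101a (0.0128). With median and upper-quartile scaling they turned positive for miR-192 (0.0871 and 0.0161), miR-365 (0.0843 and 0.0133), miR-194 (0.12 and 0.0454), miR-1902 (0.0760 and 0.00496), miR-99a (0.13 and 0.0546), miR-92a (0.12 and 0.0495), miR-494 (0.21 and 0.14), let-7c (0.66 and 0.59), let-7g (0.26 and 0.19), miR-19b (0.41 and 0.34), miR-29a (0.60 and 0.53), miR-126-5p (0.42 and 0.35), miR-29c (0.32 and 0.25), miR-200b (0.11 and 0.0367) and miR-142-5p (0.33 and 0.26). In the authors' values they turned to 0.11 for miR-92a, 0.21 for let-7c, 0.0164 for miR-19b, 0.14 for miR-29a, 0.0760 for miR-126-5p, 0.28 for miR-200b, 0.62 for miR-142-5p and -0.20 for miR-690, which was at -0.59 with cyclic loess. With chip as a fixed block they turned for miR-494 (0.12), miR-29c (0.27), miR-155 (-0.11), miR-126-3p (-0.19) and miR-17 (-0.41). Blank subtraction turned miR-665 (0.12) and miR-200b (0.26), and chip as a random block miR-200b (0.0161) and miR-142-5p (0.0106). Averaging HCC 2-1 and 2-2 turned miR-17 (-0.00928) and miR-142-5p (0.00686). Leaving out single arrays gave -0.37 to 0.0897 for miR-122, -0.0527 to 0.18 for miR-17 and -0.0231 to 0.0440 for miR-142-5p, which crosses 0 for each. No paired analysis was possible because the normal liver came from a control mouse and the tumours from STAM mice. The single normal array cannot be left out, and signals near background limit what could be detected.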
